A study of Mus musculus with 12 samples.

Results

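The transcriptome described here is that of the cortex of control mouse embryos at day E15.5, in the middle of neuron production. The 4 control libraries of the 12 in the series were chosen by their titles, and the other 8, from conditional knockouts, were not used. Of the 48709 genes listed in the count files, 44168 were autosomal or mitochondrial and make up the set described. All 4 libraries carry the same labels: strain C57BL/6J, age E15.5 and tissue embryonic cortex, with no treatment. The labels give neither the alleles nor any Cre line of the control embryos, nor whether each library came from a separate embryo, so that the spread between libraries may be technical in part.

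At this stage the wall of the cortex holds radial glia, the stem cells that line the ventricle. They give rise to basal intermediate progenitors, which divide again beneath the forming cortical plate. The neurons made from both migrate outward in an order that places deep-layer neurons first and upper-layer neurons later. Inhibitory interneurons are not made in the cortex and migrate in from the ventral forebrain. In whole-tissue RNA a gene's level depends both on how many cells express it and on how much RNA each cell holds, and these cannot be told apart.

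Levels are given as CPM (counts per M of scaled library size) when 1 gene is followed across libraries, and as TPM (counts divided by the merged exon length of the gene, scaled to a sum of 1 M) when genes are compared with each other. Values after ± are SDs over the n = 4 libraries, and lists of 4 values are in the order of control libraries 1 to 4. The libraries held 30.3, 21.4, 21.8 and 21.8 M reads. Libraries 1 and 2 had 316 and 297 reads per M from Y-linked genes and libraries 3 and 4 had 8.72 and 7.39, so the libraries came from both sexes. Libraries 1 and 2 were also closest to each other in their counts, as were 3 and 4 (Pearson's r of log2 CPM over 13621 genes 0.993 and 0.994, against 0.985 to 0.989 for the other 4 pairs). Genes are not independent, and no p is attached to these values. The part of sex in that closeness was not tested. How many of all expressed genes separate libraries 1 and 2 from 3 and 4 without overlap was not counted. Where such a split is stated below, it describes the 4 values only and is not a trait of the gene or list named. No 2 libraries agreed to within counting error. The lowest mean chi-square per gene was 5.92, for libraries 3 and 4, so none was treated as a repeat deposit of another. That does not show that they came from separate embryos.

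The 6 genes taken as marks of this tissue were all abundant. They were picked as its known markers, so their levels are a description and not a test of tissue identity. Tubb3 (chr8:123411424-123422015, plus strand), the beta-tubulin of young neurons, had 4584, 4278, 4668 and 4339.7 TPM. Fabp7 (chr10:57784881-57788450, plus strand), a fatty-acid-binding protein of radial glia, had 3319, 3260.4, 2395 and 2504 TPM. Neurod6 (chr6:55677822-55681263, minus strand), a transcription factor of cortical excitatory neurons, had 2148, 1839, 2405 and 2093 TPM. Tubb3 varied little, whereas Fabp7 was higher in libraries 1 and 2 than in 3 and 4 with no overlap, and Neurod6 was highest in library 3. Tbr1 (chr2:61802930-61814114, plus strand), a transcription factor of early-born deep-layer neurons, had 192, 215, 366 and 348 TPM. Eomes (chr9:118478212-118486132, plus strand), the marker of intermediate progenitors, had 176, 224, 308 and 295 TPM. Sox2 (chr3:34650405-34652461, plus strand), a stem cell transcription factor, had 129.6, 239.8, 265 and 278 TPM. These 3 were lowest in library 1, and each was higher in libraries 3 and 4 than in 1 and 2. In order of TPM the 6 ran Tubb3, Fabp7, Neurod6, Tbr1, Eomes and Sox2. The ranges of Fabp7 and Neurod6 overlapped, as did those of Tbr1, Eomes and Sox2, so the order within these groups is not set beyond the spread, and the other steps did not overlap.

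**Figure D1:**
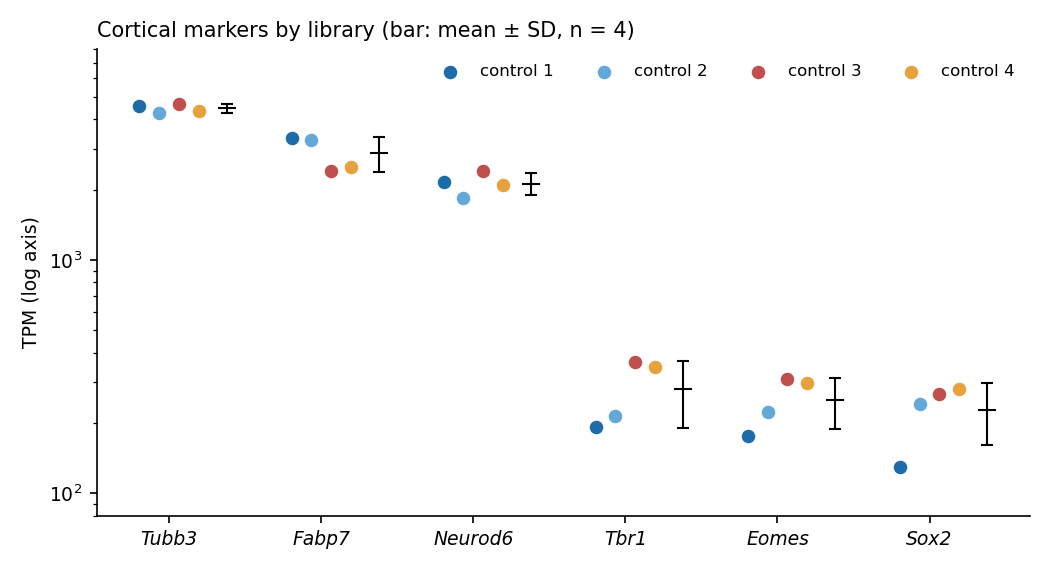
TPM on a log axis for 6 cortical marker genes in each of the 4 control libraries (coloured points), with the mean and SD (black, n = 4). Tubb3 has the highest mean, 4468 TPM, and Sox2 the lowest, 228 TPM; the ranges of Tbr1, Eomes and Sox2 overlap.

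Reads were spread over many genes. At least 1 CPM in all 4 libraries was reached by 13105 genes, of which 12193 were protein-coding, 59.3% of the 20564 protein-coding genes listed. At 10 CPM the number was 9553, at 100 CPM 2483 and at 1000 CPM 39. By TPM, 60.08% of protein-coding genes reached 1 TPM in every library, 45.25% reached 10 TPM and 9.14% reached 100 TPM. Counts of list members given below are to be read beside these percentages, since the lists were picked with earlier results known. No read in any library was found for 17947 genes, which for a single library allows a level of up to 0.103 to 0.146 CPM (3 counts). These limits and the counts cover counting error only. Among the 13105 genes the TPM quartiles were 10.99, 30.8 and 72.5. The 10 most abundant genes took 3.70, 3.64, 2.95 and 3.03% of the reads, and the 100 most abundant took 13.2 ± 0.461%. The first of these shares was higher in libraries 1 and 2, where mitochondrial transcripts were also higher. Protein-coding genes took 98.5 ± 0.177% of reads and long intergenic noncoding RNAs 0.635, 0.562, 0.498 and 0.489%, highest in library 1.

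Genes of the microtubule skeleton headed the nuclear transcriptome. Tuba1a (chr15:98949837-98953703, minus strand), the alpha-tubulin of growing neurons, was first by length-scaled level at 9163, 9623, 6975 and 7068 TPM. It was higher in libraries 1 and 2, without overlap. Its 50-base windows are shared with other transcripts for 75.5% of its length, and 26.2% of its exons overlap another gene, so reads may have been lost or gained. Tubb5 (chr17:35833921-35838306, minus strand), a broadly expressed beta-tubulin, led the nuclear genes by reads at 4263 ± 168 CPM and had 4979, 5173, 5722 and 5425 TPM. Its level differed little between libraries. Tubb3 and Tubb2b (4357 TPM) came next. They were followed by Nnat, an imprinted gene of membrane proteolipid type (4175 TPM), the chaperone Hsp90ab1 (3591 TPM) and the translation factors Eef1a1 (3449.8 TPM) and Eef2 (3160.5 TPM). The annotated microRNA gene Mir6236, of only 123 bases, was listed at 7399 TPM, which rests on 7155, 5112, 4439 and 3663 reads. Of the 15 tubulin genes measured 14 reached 1 TPM in every library, and Tuba8 did not.

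Within families a few members made up most of the level. Of the summed TPM of 7 beta-tubulins, Tubb5 took 33.5 ± 1.21%, Tubb3 28.1 ± 0.808% and Tubb2b 27.4 ± 0.594%, and Tubb6 was the lowest member. Tubb3 and Tubb2b were near equal, with a ratio of 1.03 ± 0.0288. That order turned with the length used, to 0.976 by the longest transcript. Among the stathmins, proteins that bind free tubulin, Stmn3 took 42.99 ± 1.08% and Stmn2 25.4 ± 0.489%; by the longest transcript they were near equal, at 31.9% and 30.9%. Among the collapsin response mediators, which act in axon guidance, Dpysl3 took 45.8 ± 0.401% and Crmp1 27.9 ± 0.331%, an order that turned by the longest transcript (35.6% and 41.6%). The shares of these 3 families differed by a few percentage points at most between libraries.

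**Figure D2:**
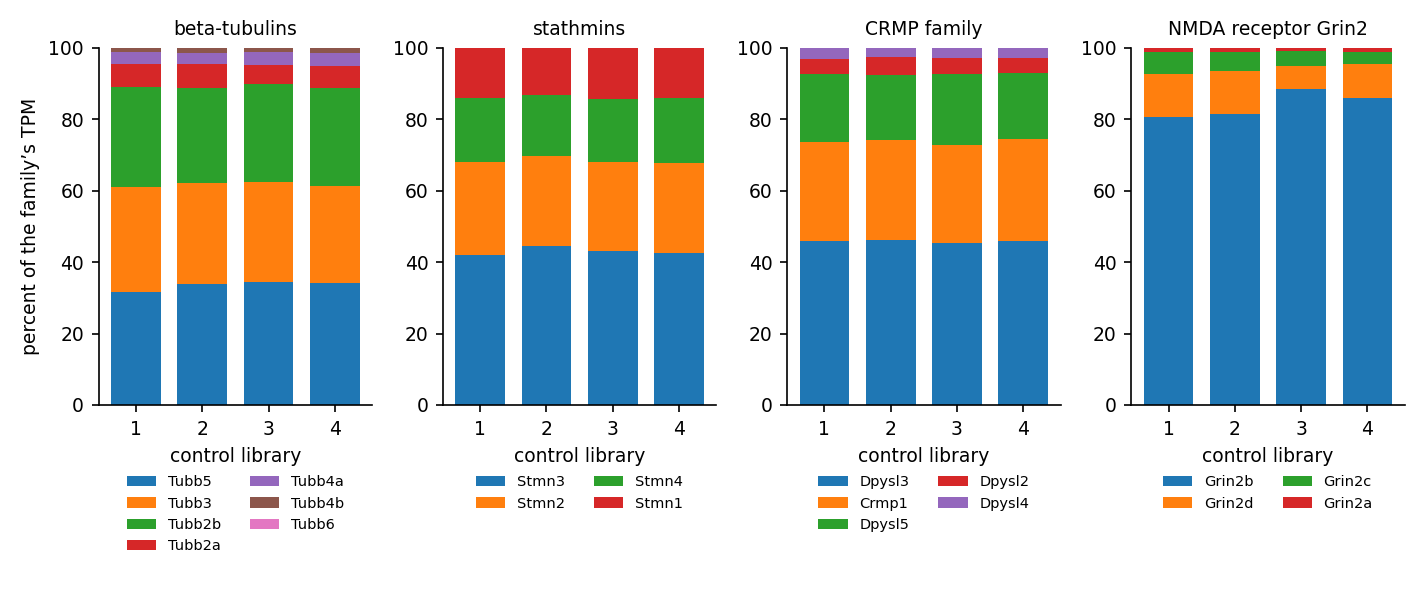
Share of each family's summed TPM taken by each member (stacked, percent) in control libraries 1 to 4, for beta-tubulins, stathmins, collapsin response mediators (CRMP family) and NMDA receptor Grin2 subunits. Tubb5, Stmn3, Dpysl3 and Grin2b take the largest share of their family in every library by merged exon length.

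Genes of microtubule-associated proteins and of growth cones were also high. Basp1 and Gap43, membrane proteins of growth cones, had 1809 ± 126 and 1222 ± 113 TPM. Marcksl1, an actin-regulating kinase substrate, had 2603 ± 286 TPM and Marcks 1029 ± 189 TPM. All 12 actin and growth cone genes reached 1 TPM in every library and 11 reached 100 TPM. The exception was Actg1, the gamma-actin gene, listed at 5.59 ± 0.838 TPM, beside 2365 ± 264 for Actb. Actg1 shares 37.4% of its 50-base windows with other transcripts and its value is uncertain. Map2, a protein of dendrites, had 424 ± 24.6 TPM by merged exons and 845 by its longest transcript, and Map1b had 441 ± 79.3 TPM. Mapt, the axonal protein tau, had 652 ± 46.3 TPM.

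Markers of radial glia were abundant. All 18 reached 10 TPM in all 4 libraries, and 10 of them 100 TPM, beside 45.25% and 9.14% of protein-coding genes. The list median was 140.0 TPM, against 30.8 over the genes at 1 CPM in every library and 7.02 over all protein-coding genes. The list was picked as known markers of these cells, so these comparisons are descriptions. After Fabp7 came Dbi, a binding protein of long-chain acyl groups, at 851 ± 77.2 TPM (1392 by the longest transcript), and Vim, an intermediate filament protein, at 401, 487, 681 and 683 TPM. Aldoc, a glycolytic enzyme, had 267 ± 31.7 TPM. Vim was lower in libraries 1 and 2 than in 3 and 4, without overlap. Nes, the filament protein of stem cells, had 172, 165, 238 and 237 TPM and was likewise lower in libraries 1 and 2. Pax6, the transcription factor of cortical progenitors, had 28.9, 41.5, 45.5 and 42.7 TPM; by its longest transcript the mean is 79.4 instead of 39.6. Sox9, a progenitor factor, had 28.2, 57.9, 70.8 and 76.1 TPM and was lowest in library 1. In the order of levels from Fabp7 to Prom1, 12 of the 17 steps between neighbours overlapped, so only a coarse order is set. The list's summed TPM was 6242, 6562, 5873 and 6047 TPM. Fabp7 held 2870 of the mean sum of 6181 TPM and was itself lower in libraries 3 and 4. The sum therefore does not show that the other members were even. Of the 18 genes, 10 were lowest in library 1, beside 35.8% of protein-coding genes at 1 TPM or more in every library.

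Markers of intermediate progenitors were detected in all libraries: 14 of 14 reached 1 TPM and 12 reached 10 TPM, beside 60.08% and 45.25% of protein-coding genes. Rprm, a gene of cell cycle arrest, was the highest, at 315, 286, 449 and 425 TPM. Neurog2, which turns on the neuronal program, had 171, 213, 319.8 and 298 TPM and Insm1, a zinc finger factor of these cells, had 139.9, 196, 239 and 218 TPM. Both were lowest in library 1 and highest in library 3. Neurog1 was far lower, at 3.56, 7.87, 15.04 and 14.003 TPM, and also lowest in library 1. Of the 14 markers, 9 were lowest in library 1 and 10 highest in library 3. Of the 12355 protein-coding genes at 1 TPM or more in every library, 35.8% were lowest in library 1 and 30.6% highest in library 3. Summed over the list the TPM was 1551, 1614, 2251 and 2097, higher in libraries 3 and 4 without overlap. Tac2, a neurokinin gene of the same list, was instead highest in library 1, at 21.2, 8.64, 13.5 and 13.1 TPM.

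Cell cycle genes were lowest in library 1 almost throughout. Of 16 genes of DNA replication 15 were lowest there, and of 16 genes of mitosis all 16, against 35.8% of the expressed protein-coding genes. Mcm3, a subunit of the replicative helicase, had 69.8, 106, 139 and 142 TPM. Mki67, the marker of dividing cells, had 64.5, 108, 125 and 126 TPM. Top2a, the topoisomerase of mitotic chromosomes, had 108, 177, 206 and 214 TPM. Libraries 3 and 4 were the highest of all for most. The median TPM of the replication list was 50.5, 75.3, 101.2 and 100.2 in the 4 libraries, and of the mitosis list 49.97, 73.1, 87.0 and 84.1. Pcna, the clamp of DNA polymerases, varied less, with 141, 159, 162 and 163 TPM. Library 1 was also the deepest and had the highest mitochondrial share, and the part of either in these differences was not tested. Replication-dependent histone genes, whose RNAs mostly end without a poly(A) tail, had 21 of 65 members without a read in all 4 libraries and a median of 0.248 TPM; only 7 of the 65 reached 1 TPM in every library. The median share of their windows found in other transcripts was 55%, so these low values are uncertain.

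Among the cell type and region lists, the pan-neuronal list and that of newborn and migrating projection neurons had the highest medians. The 15 pan-neuronal genes had a median of 424 TPM, and the 12 genes of newborn and migrating projection neurons 272 TPM, all at 10 TPM or more in every library. By the median transcript length these medians were 282 and 130 TPM, beside 104 TPM for the radial glia list. Neurod2, of the same gene family as Neurod6, had 529.9, 424, 717 and 569.7 TPM. Zbtb18, a repressor needed for cortical neuron maturation, had 795 ± 63.2 TPM, and Cntn2, an adhesion protein of axons, had 525, 368, 659.6 and 549 TPM. Unc5d, a receptor of migrating neurons, had 65.4 ± 2.33 TPM, with little spread. Rbfox3, the gene of the mature neuron marker NeuN, was at 55.5 ± 8.98 TPM, and Snap25, a synaptic vesicle fusion protein, at 149, 117, 115 and 121 TPM, highest in library 1. The neurofilament genes Nefl and Nefm had 40.3 and 45.3 TPM; other genes overlap 32.8% and 19.2% of their exons.

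**Figure D3:**
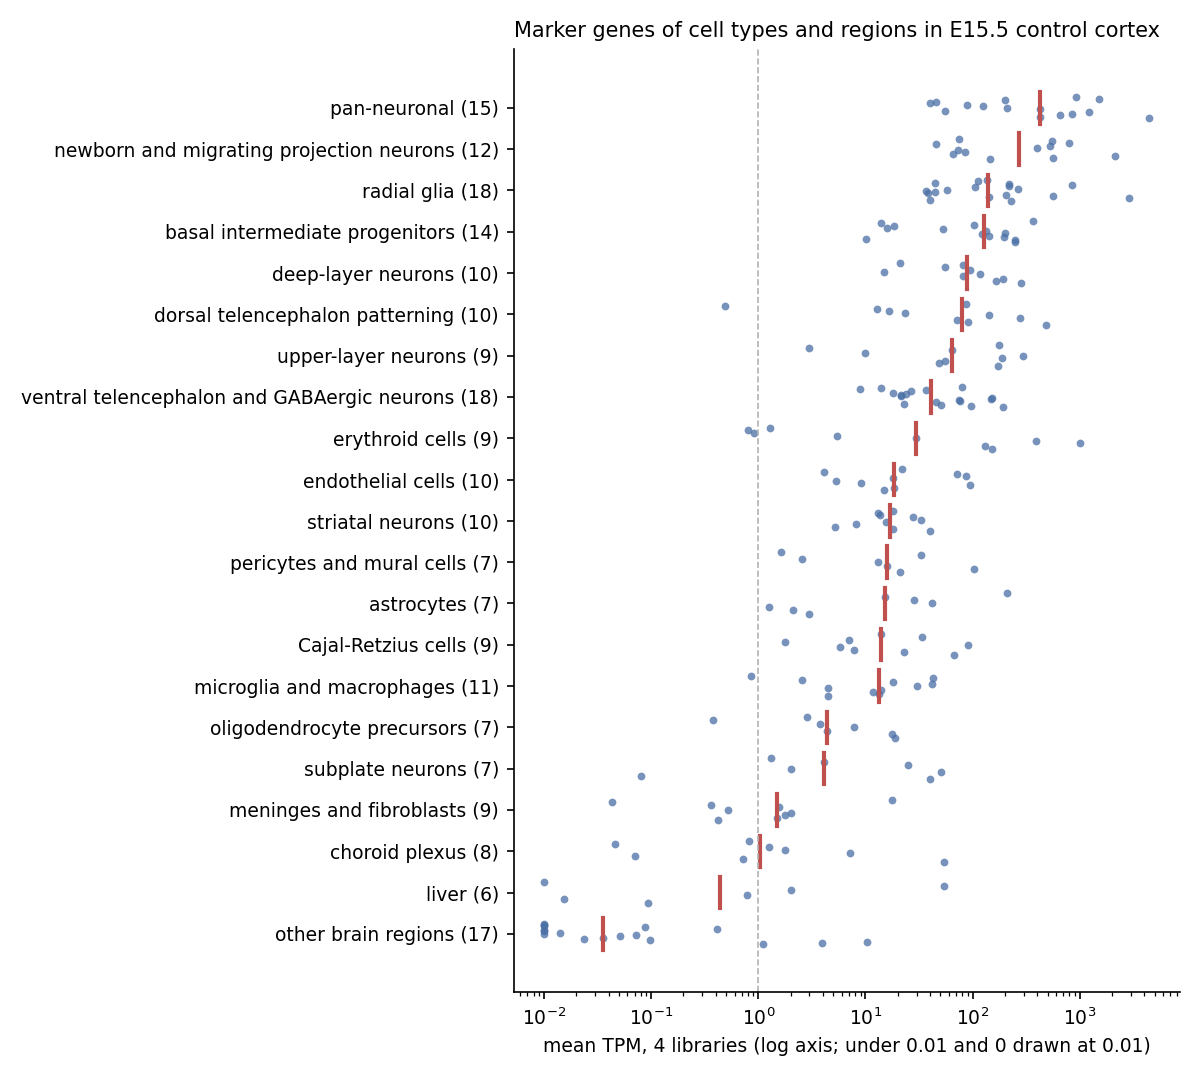
Mean TPM over the 4 control libraries on a log axis for each marker gene (points) of the cell type and region lists, with the list median (red) and the number measured in brackets. Pan-neuronal markers have the highest median, 424 TPM, and markers of other brain regions the lowest, 0.0357; the dashed line is 1 TPM.

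Markers of both deep and upper layers were detected. Among 10 deep-layer genes the highest were Tbr1 and Fezf2, the factor of subcortical projection neurons (174, 119, 266 and 210.3 TPM). Bcl11b, the corticospinal factor, had 97.6, 159, 205 and 201 TPM. Sox5 had 53.03, 49.3, 118 and 105 TPM and Crym, a thyroid hormone binding protein, 89.5, 40.5, 48.4 and 44.1 TPM. Fezf2 and Sox5 were higher in libraries 3 and 4 with no overlap, whereas Crym was highest in library 1. Sox5 stands at 122 TPM and Foxp2 at 27.1 TPM (instead of 14.8) by the longest transcript. Of 9 upper-layer genes, Pou3f3 and Pou3f2 led (295 ± 60.9 and 188 ± 24.4 TPM). Inhba and Rorb, genes of postnatal layer identity, were low (2.99 ± 0.879 and 9.88 ± 1.52 TPM). The deep-layer list had a median of 88.1 TPM and the upper-layer list 64.6 TPM, an order that turned by the median transcript length (43.5 and 85.1 TPM).

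Cajal-Retzius cells and subplate neurons, the earliest neurons of the cortex, gave lower levels. Reln, the secreted signal of Cajal-Retzius cells, had 68.5, 50.8, 74.2 and 76.9 TPM and 104 on average by the longest transcript. Trp73, a p53 relative of the same cells, had 24.6, 18.1, 22.9 and 25.7 TPM. Calb2, a calcium-binding protein, had 89.6 ± 6.59 TPM. All 9 measured Cajal-Retzius markers reached 1 TPM in every library, and 7 of the 9 were lowest in library 2, as were 26.5% of expressed protein-coding genes. Of 7 measured subplate markers 6 reached 1 TPM in every library; Nr4a2 had 39.97 ± 3.89 TPM and Cplx3, a synaptic protein of later subplate, 0.081 TPM.

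Genes of ventral forebrain origin were prominent and differed between libraries. Of 18 markers of the ventral telencephalon and its GABAergic neurons 17 reached 1 TPM in every library. Dlx1, a factor of interneuron precursors, had 168, 227, 167 and 201 TPM. Gad2, an enzyme of GABA synthesis, had 56.6, 99.4, 62.1 and 86.9 TPM. Sst, the interneuron neuropeptide, had 107, 209.8, 117 and 166 TPM. Libraries 2 and 4 were higher than 1 and 3 in Gad2 and Sst, and 12 of the 18 markers were highest in library 2, against 15.9% of expressed protein-coding genes. Lhx6, the factor of migrating interneurons, was even, at 74.3, 74.7, 68.2 and 81.7 TPM. Nkx2-1, which marks the medial ganglionic eminence, was low in libraries 1 to 3 and highest in library 4, at 4.85, 6.59, 0.798 and 23.04 TPM. By merged exons Gad2 exceeded Gad1 with a ratio of 1.67 ± 0.214, an order that turned by the longest transcript, at 0.805. The list sums were 935, 1381, 933 and 1195 TPM.

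Genes of striatal projection neurons also differed between libraries, and 9 of 10 were highest in library 2 (again beside 15.9%). Their sums were 130.4, 306, 154 and 178 TPM. Tac1 (chr6:7554879-7565834, plus strand), the substance P precursor, had 5.09, 38.2, 5.52 and 13.5 TPM. Isl1, a factor of striatal neurons, had 16.2, 47.6, 15.51 and 32.4 TPM, with libraries 2 and 4 above 1 and 3. Rxrg, a retinoid receptor, had 7.89, 60.9, 12.4 and 13.9 TPM, and Rarb 5.75, 31.7, 7.48 and 11.8 TPM. Both are outside the striatal list and were named for their spread. Drd1, a dopamine receptor gene, differed less, with 15.4, 22.5, 18.6 and 15.7 TPM. How much striatal tissue entered each library was not tested. Without library 2 the 3 Tac1 values would range from 5.09 to 13.5 TPM.

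**Figure D4:**
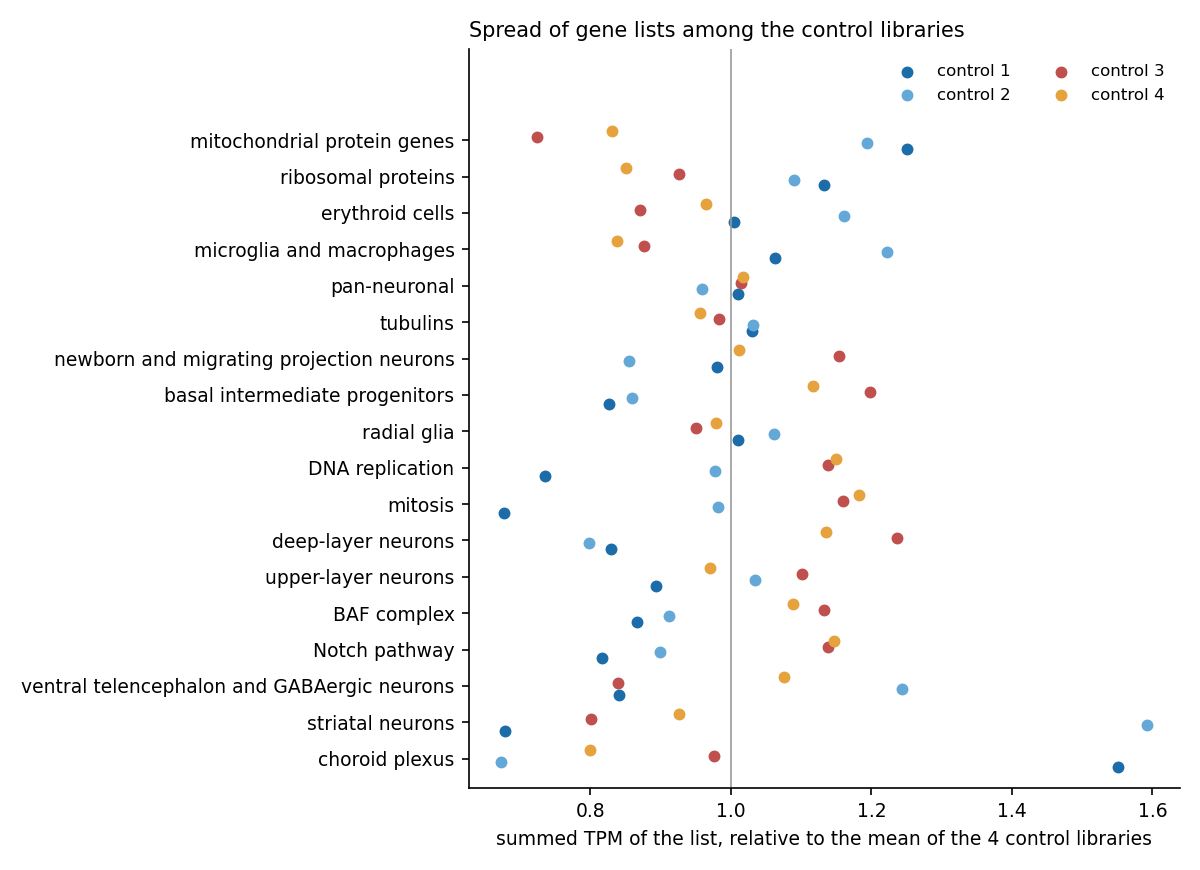
Summed TPM of 18 gene lists in each control library (coloured points), divided by the mean of the 4. Pan-neuronal genes and tubulins lie close to 1, the striatal neuron sum is highest in library 2 and the choroid plexus sum, most of which is Ttr, in library 1, and those of replication and mitosis are lowest in library 1.

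Markers of cells of other lineages had smaller but measurable levels. Of 11 microglial markers 10 reached 1 TPM in every library; Csf1r, the receptor they need to survive, had 13.2, 13.4, 13.2 and 13.2 TPM. Their sums were 195, 225, 161 and 154 TPM, highest in library 2. Endothelial markers, 10 of 10 at 1 TPM or more, summed to 377, 319, 340.0 and 345 TPM, and Cldn5, the tight-junction protein of brain vessels, had 95.03 ± 14.4 TPM. Pericyte markers, 7 of 7, had a median of 15.9 TPM, and 4.91 by the median transcript length. Meningeal markers were low, with a median of 1.49 TPM and 5 of 9 at 1 TPM in every library. The highest of them was Cxcl12 at 17.8 TPM, whereas Col1a1, a collagen of meningeal fibroblasts, had 0.249, 0.446, 0.565 and 0.407 TPM. Choroid plexus markers had a median of 1.04 TPM (0.499 by the median transcript length), but Ttr, the plexus transthyretin, had 89.7, 36.4, 52.7 and 36.004 TPM, highest in library 1. Oligodendrocyte precursor genes were low (Olig2 17.5 ± 4.59, Pdgfra 7.89 ± 1.71, Sox10 4.35 ± 0.813 TPM), as was Gfap, the astrocyte filament protein (5.56, 2.45, 1.76 and 1.996 TPM, highest in library 1). Of the 7 genes in the astrocyte list 4 reached 10 TPM in every library, with Sparcl1 the highest at 210 TPM. By mean TPM, Aqp4 and S100b stood below Gfap. Which cells gave these levels was not tested. The list had a median of 15.2 TPM, and 24.4 by the longest and 25.9 by the median transcript length.

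Blood was present in every library. The adult-type globin Hbb-bs had 1081, 1237, 822 and 885 TPM and Hba-a1 139.9, 159.8, 148 and 157 TPM. Both share windows with their near-identical copies (53.2% and 72.3%), so the split within the cluster is uncertain. The embryonic globin Hbb-y (chr7:103851749-103853216, minus strand) had 4.95, 12.3, 46.2 and 55.1 TPM. It rested on 23, 40, 142 and 170 reads and was higher in libraries 3 and 4 without overlap, where the adult Hbb-bs was lower. Hba-x, the embryonic alpha globin, had 2.47, 2.08, 5.93 and 11.2 TPM and was likewise higher in libraries 3 and 4. Reads from residual blood cells cannot be told apart from the tissue.

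Genes of the dorsal forebrain were high and most genes of other brain regions were at or near 0. Of 10 dorsal patterning genes 9 reached 1 TPM in every library; Lhx2, a cortex selector gene, had 217, 218, 349 and 317 TPM and was higher in libraries 3 and 4, without overlap. Emx1, a factor of the dorsal cortex, had 69.4, 68.8, 119.8 and 108 TPM. Zic1, a gene of medial cortical and septal regions, had 69.8, 65.0, 59.1 and 152 TPM and was highest in library 4. Of 17 markers of other brain regions 6, among them Hoxa2, Hoxb3, Hoxd3 and Foxa2, had no read in any library, and only Lhx9 (10.3 ± 4.07 TPM) and Tcf7l2 (3.92 ± 0.888 TPM, 7.03 by the longest transcript) reached 1 TPM in every library. Among 6 liver genes Alb had 0.0939 TPM and Serpina1a no read.

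Transcription factors of the young cortex were high. All 44 in the list reached 1 TPM in every library and 25 reached 100 TPM, beside 60.08% and 9.14% of protein-coding genes. Besides Neurod6, the highest were Ybx1 (912 ± 36.7 TPM), Zbtb18, Id2 (671 ± 52.3 TPM), an inhibitor of bHLH factors, and Sox11 (449, 567, 774 and 714 TPM), a factor of immature neurons. Nfib and Nfix, nuclear factor I genes of progenitors and neurons, had 206, 205, 395 and 357 and 366, 311, 576 and 514 TPM; both were higher in libraries 3 and 4. Library 1 had the lowest value for 29 of the 44 and library 3 the highest for 29 (against 35.8% and 30.6% of expressed protein-coding genes), and the list sums were 10109, 10286, 13356 and 12153 TPM. Tcf4 moves from 173 to 419 TPM by the longest transcript.

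Among receptors and transporters, some members stood above others of their family. No other age was measured, so a change with age cannot be read from these values. Grin2b, the NMDA receptor subunit of early life, had 31.3, 25.7, 31.3 and 29.7 TPM, and Grin2a, its mature counterpart, 0.502, 0.348, 0.322 and 0.378 TPM. The ratio was 77.9 ± 14.5. Grin2b made 84.2 ± 3.70% of the summed Grin2 subunits. Of the AMPA receptor genes listed, which were Gria1, Gria2 and Gria4 only, Gria2 was the highest at 264, 213, 176 and 158 TPM. It made 57.5 ± 4.81% of their sum. Grik5 and Grik3 led the kainate receptors (133 ± 13.8 and 104 ± 19.49 TPM). Slc12a2, which loads chloride into young neurons, stood above Slc12a5, which removes it, with a ratio of 2.68 ± 0.71 and 3.63 by the longest transcript. Slc17a6 exceeded Slc17a7, the other cortical vesicular glutamate transporter, at a ratio of 1.84 ± 0.413 and 1.37 by the longest transcript. In every one of these ratios all 4 libraries lay above 1.

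The BAF chromatin remodelling complex opens nucleosomes and exchanges subunits as progenitors become neurons. All 28 of its listed genes reached 1 TPM in every library, beside 60.08% of protein-coding genes, with a median of 102 TPM. Smarca4, its ATPase, had 310.5, 328, 504.2 and 477 TPM and the alternative ATPase Smarca2 86.9, 77.4, 81.8 and 78.2 TPM, a ratio of 5.02 ± 1.31 by merged exons and 2.11 by the longest transcript. Smarcc2 exceeded Smarcc1 with 445, 441, 568 and 519.9 against 116, 145, 195 and 198 TPM. Smarcc1, Smarcc2 and Smarca4 were all lower in libraries 1 and 2, with no overlap, a split whose share over all genes was not counted. The neuronal actin-like subunit Actl6b was at 148 ± 12.4 TPM beside 96.4 ± 11.7 for the progenitor form Actl6a, a ratio of 1.11 by the longest transcript. Of the 28 genes, 17 were lowest in library 1 and 15 highest in library 3, beside the same 35.8% and 30.6%. Of DNA methylation genes, Dnmt1, which copies methylation at replication, had 105, 135, 179 and 175 TPM. Dnmt3a had 38.4 ± 6.86 TPM, and Dnmt3l no read in any library. Mbd3, of the Mbd gene family, was at 369 ± 46.8 TPM.

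Notch and Wnt genes were moderate. All 13 Notch genes reached 10 TPM in all 4 libraries, from 15.9 TPM for the ligand Dll3 to 52.8 for Lfng, which modifies the receptor; Notch1, a receptor, had 34.4, 40.6, 52.6 and 50.6 TPM and Hes1, its target, 26.4, 33.2, 46.0 and 48.5 TPM. Both were lower in libraries 1 and 2. Of 13 Wnt pathway genes, Ctnnb1, the beta-catenin gene, had 1287 ± 188 TPM, and Wnt7b, a secreted ligand, 119, 112, 211 and 154 TPM. Tcf7l1, a nuclear effector of the pathway, was named for its spread with 5.63, 10.9, 17.2 and 21.1 TPM, lowest in library 1. The neuronal splicing factors Nova2, Rbfox1 and Rbfox2 had 48.5 ± 7.47, 153 ± 17.0 and 374 ± 37.2 TPM, and Elavl3 429.6 ± 64.1 TPM. Ptbp2 exceeded its progenitor relative Ptbp1 with a ratio of 2.22 ± 0.285 and 3.36 by the longest transcript. Of immediate early genes, which respond to activity and handling, Fos had 1.80, 2.41, 2.98 and 2.01 TPM and Jun 46.0, 70.4, 109.8 and 98.2 TPM, the latter highest in libraries 3 and 4.

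Imprinted and noncoding genes included several high ones. Nnat was the highest of 25 imprinted genes, followed by Ndn (409.6 ± 61.4 TPM) and Peg13 (283 ± 20.4 TPM), and 23 of the 25 reached 1 TPM in every library. The maternally expressed Meg3 had 149, 113, 61.5 and 93.9 TPM and Rian 87.2, 80.5, 50.3 and 63.5 TPM, both lowest in library 3; Rian averages 120.5 TPM by the longest transcript. Miat, a long noncoding RNA of the nervous system, was first among noncoding genes by reads (629.9 ± 162 CPM) and had 379, 251, 251 and 240.4 TPM, highest in library 1. Exons of Miat overlap other genes for 30.4%. C130071C03Rik, the host of the Mir9-2 hairpin, followed at 543 ± 50.6 CPM, and overlaps other genes for 24.7% of its exons. Malat1, often among the most abundant nuclear RNAs, was at 142, 121, 124 and 98.0 TPM, and Neat1 at 0.775, 0.498, 0.447 and 0.573 TPM.

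Some noncoding or imprinted genes of these lists carry microRNAs. The deposited counts concern the host transcripts and say nothing about the mature forms. Their sequences, from RefSeq (GRCm38.p6), are shown because the hosts are among the genes described, with the seed (bases 2 to 8, counted from the 5′ end) in capitals. The microRNA miR-9, on hosts C130071C03Rik (398 TPM) and Mir9-3hg (82.2 ± 13.8 TPM), is a regulator of neural progenitors:
miR-9-5p: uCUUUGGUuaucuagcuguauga
miR-9-3p: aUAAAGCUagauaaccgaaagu
miR-335-5p, in Mest (163 ± 18.5 TPM): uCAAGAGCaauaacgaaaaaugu
miR-675-5p, in H19 (76.1 ± 12.1 TPM): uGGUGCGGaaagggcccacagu
miR-770-5p, in Meg3 (104 ± 36.5 TPM): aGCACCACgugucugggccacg
The 5 sequences have 5 different seeds. The noncoding gene Mir124a-1hg had 323, 244, 206 and 188 TPM, highest in library 1.

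Mitochondrial transcripts were the highest of all but rested on fewer genes. They took 2.36, 2.26, 1.25 and 1.44% of reads, highest in library 1 and lowest in library 3, and 8.02, 7.74, 4.61 and 5.29% of TPM. mt-Cytb, cytochrome b, had 22079, 20392, 12687 and 13849 TPM and mt-Co1, a subunit of cytochrome oxidase, 16914, 16690.2, 9941 and 11021 TPM. Libraries 1 and 2 lay above 3 and 4 in both, without overlap. Of 13 mitochondrial protein genes 7 reached 1 TPM in every library and 4, mt-Nd4l, mt-Co3, mt-Atp6 and mt-Atp8, were at 0 in all 4. mt-Nd3 and mt-Co2 were at 0 in libraries 1 to 3. The transcripts of mt-Nd3, mt-Nd4l, mt-Co2, mt-Co3 and mt-Atp6 share 98.0 to 100% of their windows with other annotated transcripts, mt-Atp8 shares 0%, and 21.1% of its exon overlaps another gene. Across the annotation, 319 of 351 protein-coding genes with at least 95% of their windows shared had no read (90.9%), against 1932 of 14221 with under 5% (13.6%). Such a 0 here is no measure of absence.

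Ribosomal protein genes showed the same caution. Of 78 in the list 75 reached 1 TPM in all libraries, with a median of 111 TPM and Rps15 the highest at 2154 ± 342 TPM. Of the 78, 50 were highest in library 1 and 50 lowest in library 4, against 25.4% and 16.6% of expressed protein-coding genes. Rpl29 (chr9:106429454-106431568, plus strand) was far from the rest at 95.8, 88.9, 4.39 and 3.46 TPM, from 791, 513, 24 and 19 reads, and Rps2 had 231, 239, 83.7 and 89.6 TPM; both share windows with other transcripts (35.5% and 43%). Glycolysis genes such as Aldoa (199 ± 7.53 TPM) were high and Gapdh was listed at 37.7 ± 3.75 TPM, with 25.1% of its windows shared.

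The spread between libraries was modest for most genes. The biological coefficient of variation, the relative spread beyond counting error that edgeR estimates, was 0.135 in common over 14209 genes. The median fell with level from 0.172 at 1 to 10 CPM to 0.105 at 100 to 1000 CPM, and was 0.116 for the 56 genes above. The highest among genes of at least 10 CPM was Rpl29 (0.943), followed by Tac1 (0.584), Rxrg (0.576) and Tdg (0.533), a DNA glycosylase. Tdg had 16.3, 16.3, 20.2 and 2.02 TPM and was low in library 4 alone; it shares 41.2% of its windows. Zic4 (19.1, 9.88, 8.30 and 38.1 TPM; mean 37.9 by the longest transcript), Fgf15 (12.3, 11.5, 5.796 and 28.7 TPM), a growth factor of the ventral and medial forebrain, and Asb4 (9.92, 10.1, 5.82 and 24.3 TPM) were highest in library 4. Among the most even genes were Sike1 (51.4, 50.7, 53.4 and 54.5 TPM; coefficient 0.0890), Ncbp2, a subunit of the cap-binding complex (237, 231, 246 and 249 TPM), and Dld, an enzyme of the pyruvate dehydrogenase complex (159, 162, 168 and 170.5 TPM).

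**Figure D5:**
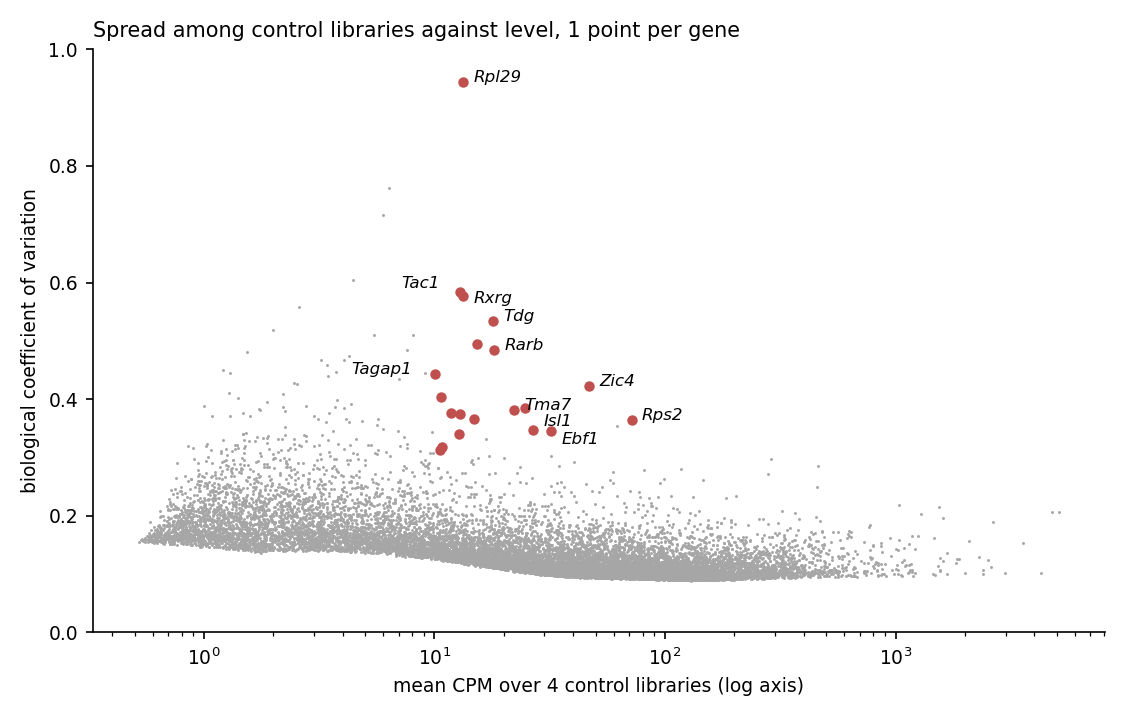
Biological coefficient of variation against mean CPM (log axis) for 14209 genes (grey), 1 point each; red marks the 20 genes of highest spread among all genes at a mean of 10 CPM or more, predicted models left out. Rpl29 has the highest value of these at 0.943, and Tac1, Rxrg and Tdg follow.

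Part of the spread was aligned with gene length. The deviation of a library from the mean of the 4 correlated across 13621 genes with log2 exon length at r of -0.23 and -0.15 in libraries 1 and 2, and 0.18 and 0.21 in 3 and 4; with GC content r was -0.01, -0.24, 0.22 and 0.02. Genes are not independent and these values are descriptions. Short, highly expressed genes, such as those of the mitochondrion and the ribosome, were among those higher in libraries 1 and 2, and the part of gene length in the differences above was not tested.

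Promoters of genes with more reads held more CpG dinucleotides. Over 19078 RefSeq promoters (GRCm38.p6; 250 bases before the start to 50 after) of 15595 protein-coding autosomal genes, the median number was 2 for genes without a read, 6 for those under 1 CPM, 14 at 1 to 10, 21 at 10 to 100 and 24 at 100 CPM or more. The motif TATAAA, searched 40 to 21 bases before the start on the gene's strand, was in 7.12% of promoters of genes without a read and 0.879% of those at 100 CPM or more. The motifs CTTTTC or CTTTCC, searched from 6 bases before to 10 after the start, were in 11 of 70 ribosomal protein promoters (15.7%) and in 0.975% of all. A match is a description, not a factor's site. The 120 bases before the start, with each CG in capitals, illustrate the range, and were chosen after the values were seen. Eef2 (3160.5 TPM) is an evenly used gene, Neurod6 a tissue-specific one at 2121 TPM, and Hbb-bt a globin at 386 TPM:
Eef2, chr10:81176511-81176630, plus strand, 16 CG: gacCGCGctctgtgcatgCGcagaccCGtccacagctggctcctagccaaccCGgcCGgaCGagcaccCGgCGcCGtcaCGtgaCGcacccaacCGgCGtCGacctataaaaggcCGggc
Neurod6, chr6:55681264-55681383, minus strand, 2 CG: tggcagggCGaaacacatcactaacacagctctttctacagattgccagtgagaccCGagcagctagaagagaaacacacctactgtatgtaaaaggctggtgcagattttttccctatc
Hbb-bt, chr7:103813924-103814043, minus strand, 0 CG: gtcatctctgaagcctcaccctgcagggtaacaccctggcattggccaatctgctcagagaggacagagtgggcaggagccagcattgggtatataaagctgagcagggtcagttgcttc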

How the data were processed

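RNA of embryonic cortex was measured in 4 control libraries. Per the labels' protocols, the RNA came from an RNeasy column and the libraries from the TruSeq RNA v2 kit. That kit keeps no strand information, so reads of a gene and of a gene overlapping it on the other strand cannot be told apart. The authors deposited a raw count of reads for each gene, in whole numbers and without normalization, with 1 file per library. The submitters' processing notes name the build mm10. The aligner, the program that counted reads and the gene annotation it used were not given in the sources used here. Of 48709 identifiers 48349 matched GENCODE M21 (GRCm38), which gave symbols, positions and lengths; the other 360 held at most 0.0339% of a library's reads.

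CPM used TMM scaling from edgeR 4.0.16 in R 4.3.3, with X and Y genes left out of all levels. The coefficient of variation came from edgeR with no groups. The script for it was tested on simulated data. Depth, 21.4 to 30.3 M reads, sets the precision of low genes. Members and lists were chosen with earlier results of these data known. Named genes are the 20 highest by TPM and by CPM (nuclear and mitochondrial ranked apart), the 10 highest noncoding, the list members, and the 20 most and 10 least variable at 10 CPM or more. Fmr1 and Pgk1 are X-linked and were left out; Ctgf, Ahsp and Rmst were not matched by symbol. Promoter and microRNA sequences are from RefSeq. Some list members are not reported here. No groups were compared. Library pairs were checked with a chi-square of their counts, and single libraries against Dixon's limit. Other settings were leaving out each library, other scaling and gene length, RLE and DESeq2 1.42.0 dispersions, and thinning.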

Additional observations from a re-analysis of the deposited data

Results flagged for a closer look

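Some values stood apart from those of the other 3 libraries by a gap that exceeded Dixon's 95% limit, taken as a share of the whole range of the 4. Chance alone would flag about 1 in 20. Of 435 named genes at a mean of 10 TPM or more, 16 (3.68%) stood apart, of 42 list medians 2, and of 27 library measures 0.

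Of the 16 genes, 5 were highest in library 1, 4 lowest in library 1, 2 highest in library 2, 1 lowest in library 2 and 4 highest in library 4. In library 1, Miat stood above the others with a gap of 0.920 of the range, Esam, an endothelial adhesion protein, 0.904, Gas5 0.853, Crym 0.838 and Snap25 0.832. Ptbp2 (gap 0.866), Tubb4b (0.858), Pcna (0.849) and Mbd2 (0.837) were lowest there. In library 2, Rxrg (0.888) and Foxp1 (0.864, 25.6, 48.8, 28.7 and 27.4 TPM) were highest and Ncam1 (0.876, 209.6, 184, 206 and 209 TPM) lowest. In library 4, Emp1 (0.958, 7.08, 6.58, 7.19 and 21.1 TPM), P2ry12, a microglial receptor (0.935, 13.4, 13.5, 13.4 and 14.998 TPM), Zic1 (0.885) and Slc12a2 (0.878, 32.3, 31.8, 32.1 and 35.9 TPM) were highest. The list medians were those of other brain regions, with a gap of 1.0 (0, 0.0226, 0 and 0 TPM, a level at or near 0), and of long noncoding RNAs, 0.838 (86.5, 88.4, 76.0 and 86.4 TPM). No cause was tested.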

How the results depend on the processing

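The number of genes detected was 13089 with libraries thinned to the shallowest, 13100 with RLE factors, 14322 at 10 counts in all 4 and 14429 at 1 TPM, and 13145 to 13236 when 1 library was left out. The reads in the 100 most abundant genes were 13.2% as reported, 12.1% with nuclear genes only, 21.2% by TPM and 12.99 to 13.3% without 1 library. The mitochondrial share was 1.83% of reads, 6.42% of TPM and 1.65 to 2.02% without 1 library. The protein-coding share was 98.5% of reads, 95.7% of TPM and 98.4 to 98.6% without 1 library. The coefficient of variation was 0.119 to 0.144 without 1 library, the lowest without library 1; DESeq2 gave 0.129, RLE factors 0.135, no filter 0.142 and a 10 CPM minimum 0.126. Of the list medians, 15 of 42 moved by more than the spread between libraries when TPM used the longest transcript, 32 of 42 with the median transcript length and 5 of 41 with nuclear genes only, and 3 of 168 when 1 library was left out. For single genes these were 259 of 556, 65 of 530 and 48 of 2224 for the longest transcript, nuclear genes only and 1 library left out. Orders of genes by TPM therefore depend on the length used, and the cause for single genes was not tested. No paired analysis was possible because only 1 group is described and no comparison was made.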
